A study of Mus musculus with 31 samples.

Results

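The genes followed here encode the enzymes that build triglyceride, the main fat of milk, from glycerol 3-phosphate. They are *Gpam*, *Gpat4*, *Agpat1*, *Agpat2*, *Agpat3*, *Agpat5*, *Lpin1*, *Lpin2*, *Dgat1* and *Dgat2*. They were taken as a named set of glycerolipid synthesis genes and matched by symbol to the mouse assembly GRCm39. The rule used no measured level, but the set was chosen with earlier results of these data known. The paper on these libraries had reported *Dgat1* and *Dgat2* as upregulated genes of a fatty acid homeostasis pathway under the drug fluoxetine. The set held 10 of the 55379 genes counted in each library. All 10 passed the filter on low counts, which kept 14362 genes.

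The libraries were mammary gland RNA from 31 C57BL/6J dams at lactation day 10, and the study asked how the selective serotonin reuptake inhibitor fluoxetine and dietary folic acid (FA) change the lactating gland. The diets, fed from 2 weeks before mating, held FA at 4 mg/kg (breeder diet) or 24 mg/kg (FA diet). Dams were bred from 6 weeks of age and received fluoxetine at 20 mg/kg per day or saline by injection from embryonic day 13 to lactation day 10. There were 8 dams on the breeder diet given saline, 7 on the breeder diet given fluoxetine, 8 on the FA diet given saline and 8 on the FA diet given fluoxetine. The sample labels and the study's methods give the 7 to different fluoxetine groups, and the labels were followed. Every group shared strain, lactation stage and daily injections, each library came from 1 dam, and the tissue was whole gland.

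Library totals ran from 15412542 to 36000439 counts (median 22299952), and the 20 most abundant genes held a median of 77.1% of them. FA diet + fluoxetine dam 3 stood apart at 39.3%, followed by breeder diet + fluoxetine dam 13 at 60.5%, and the other dams lay between 70.1% and 81.0%. Summed over 8 secretory epithelial markers, dam 3 had a level of 41307 CPM (library size-scaled counts, after TMM normalization), dam 13 had 224826, and the highest dam had 689481. The TMM factor that divides these levels was 3.04 for dam 3 and 1.57 for dam 13, and 0.716 to 1.25 for the other dams. Part of the contrast in CPM therefore comes from this scaling. Dam 3 also held the highest summed levels of adipocyte (1040 CPM), fibroblast (622 CPM) and leukocyte (51.2 CPM) markers. Dams 3 and 13 are called below the 2 libraries low in milk transcripts, and results of the triglyceride assembly genes that rest on them are given with and without them. All 9 adipocyte markers, *Adipoq* and *Plin1* among them, had counts in all 31 dams, and their summed level ran from 186.7 to 1040 CPM.

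Triglyceride assembly adds acyl chains to a glycerol backbone in order. Glycerol-3-phosphate acyltransferases (GPATs) make lysophosphatidic acid, acylglycerol-phosphate acyltransferases (AGPATs) turn it into phosphatidic acid, lipins remove the phosphate to give diacylglycerol, and diacylglycerol acyltransferases (DGATs) add the last chain. The secretory cells of the lactating gland and the adipocytes of the fat pad both run this pathway, and mice without *Gpat4* or *Dgat1* are known for failing to make normal milk fat.

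Counts divided by the length of each gene's merged exons put one enzyme well ahead at most steps. *Agpat1*, the general AGPAT of the endoplasmic reticulum, was the most abundant member, at a median of 29.6 CPM per kilobase (kb) over the 31 dams. *Gpat4*, the GPAT of the endoplasmic reticulum, followed at 15.6, *Lpin1* at 13.9 and *Dgat1* at 10.2 CPM per kb. These 4 genes, 1 for each step, led the order. The remaining members were lower, with *Agpat2* at 3.36, *Gpam* (the mitochondrial GPAT) at 2.38 and *Dgat2* at 1.64 CPM per kb. *Agpat5* at 0.995, *Agpat3* at 0.596 and *Lpin2* at 0.176 CPM per kb closed the order.

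Neighbours in this order were not all apart. Among the 8 control dams (breeder diet, saline), the ranges of *Dgat1* and *Agpat2* did not overlap, nor did those of *Agpat3* and *Lpin2*, and every other pair of neighbours overlapped. *Gpat4* exceeded *Lpin1* in 19 of 31 dams, *Agpat2* exceeded *Gpam* in 22 and *Gpam* exceeded *Dgat2* in 23, while *Agpat1* exceeded *Gpat4* and *Dgat1* exceeded *Agpat2* in all 31. Dividing by the canonical transcript in place of merged exons kept the order except that *Agpat3* (1.21 CPM per kb) then stood above *Agpat5* (1.03 CPM per kb).

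*Agpat2* and *Dgat2* were the pair of members whose levels varied together most closely from dam to dam (values below), so the sequence before their start sites is shown here. The AGPAT2 enzyme is the AGPAT whose loss causes lipodystrophy, and DGAT2 is a DGAT found at lipid droplets and, like DGAT1, in adipose tissue. Both stretches are written 5′ to 3′ on the minus strand of GRCm39, ending before the start site of the canonical transcript. Capitals mark a CCAAT box, here in its reverse orientation. *Agpat2* is given as chr2:26494638-26494887, 250 bases outside any annotated exon. *Dgat2* is given as chr7:98831992-98832211, 220 bases that stop 30 bases short of the start site, where an exon of a longer transcript begins.
Agpat2: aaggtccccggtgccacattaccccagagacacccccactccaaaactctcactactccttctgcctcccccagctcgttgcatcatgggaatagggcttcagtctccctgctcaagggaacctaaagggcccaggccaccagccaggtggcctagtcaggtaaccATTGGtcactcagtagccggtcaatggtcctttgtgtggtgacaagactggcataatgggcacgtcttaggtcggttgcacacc
Dgat2: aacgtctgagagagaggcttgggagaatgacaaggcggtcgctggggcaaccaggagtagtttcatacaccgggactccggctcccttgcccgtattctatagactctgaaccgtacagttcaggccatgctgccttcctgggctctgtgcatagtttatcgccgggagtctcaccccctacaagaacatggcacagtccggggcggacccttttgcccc

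Each member's 250 bases before the start site were searched on both strands for 5 short motifs, and the same window was read for 21770 protein-coding genes. Exon bases were not left out of this search. Annotated exons covered all 250 bases for *Agpat3*, *Agpat5*, *Lpin2* and *Dgat1* and 243 for *Gpam*. Only the *Agpat2* window held no exon bases. CCAAT was found in 4 of 10 members (*Agpat1*, *Agpat2*, *Agpat3* and *Agpat5*, the 4 AGPATs) and in 36.5% of all windows. CACGTG, an E-box, was found in *Agpat3* and *Lpin2* (2 of 10, against 6.26% of windows), and AGGTCA, a nuclear receptor half-site, in *Gpam* and *Agpat3* (2 of 10, against 13.12%). TTCNNNGAA, the STAT5 site type, was found in *Agpat1* alone (7.7% of windows) and TCACNCCAC, a sterol response element type, in no member (1.12% of windows). The *Dgat1* and *Dgat2* windows held none of the 5 motifs, which says only that these letters are not in that window. For *Dgat1* the whole window was annotated exon of the gene itself.

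Under fluoxetine, 3 of the 10 genes were higher at an unadjusted p of 0.05 or below, namely *Dgat1*, *Dgat2* and *Agpat2*, and none was past the study's false discovery rate (FDR) of 10% over 14362 genes. The 3 genes were higher by 1.27-fold, 1.73-fold and 1.40-fold. The other 7 members lay between a log2 fold change of −0.25 (*Lpin1*) and 0.22 (*Lpin2*), and the median of all 10 was 0.07. Over all genes tested, 9.92% had an unadjusted p of 0.05 or below, 6.94% were so and higher, and 0.0209% (3 genes) passed the FDR, with a median log2 fold change of 0.02. The paper had already reported *Dgat1* and *Dgat2* as upregulated in these libraries, within a fatty acid homeostasis pathway. That pathway analysis took genes by unadjusted p, a looser threshold than the 10% FDR. The count of 3 of 10 is not independent of that report. Unless another test is named, p-values came from the quasi-likelihood test of edgeR, and adjusted values are by Benjamini-Hochberg over all genes tested. Beside this 0 of 10, the likelihood ratio test also called 0 of 10 (0.313% of all genes passed), DESeq2 called 1 (0.487% of genes) and limma voom with sample quality weights called 1 (0.334% of genes), the gene being *Dgat1* each time.

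**Figure D1:**
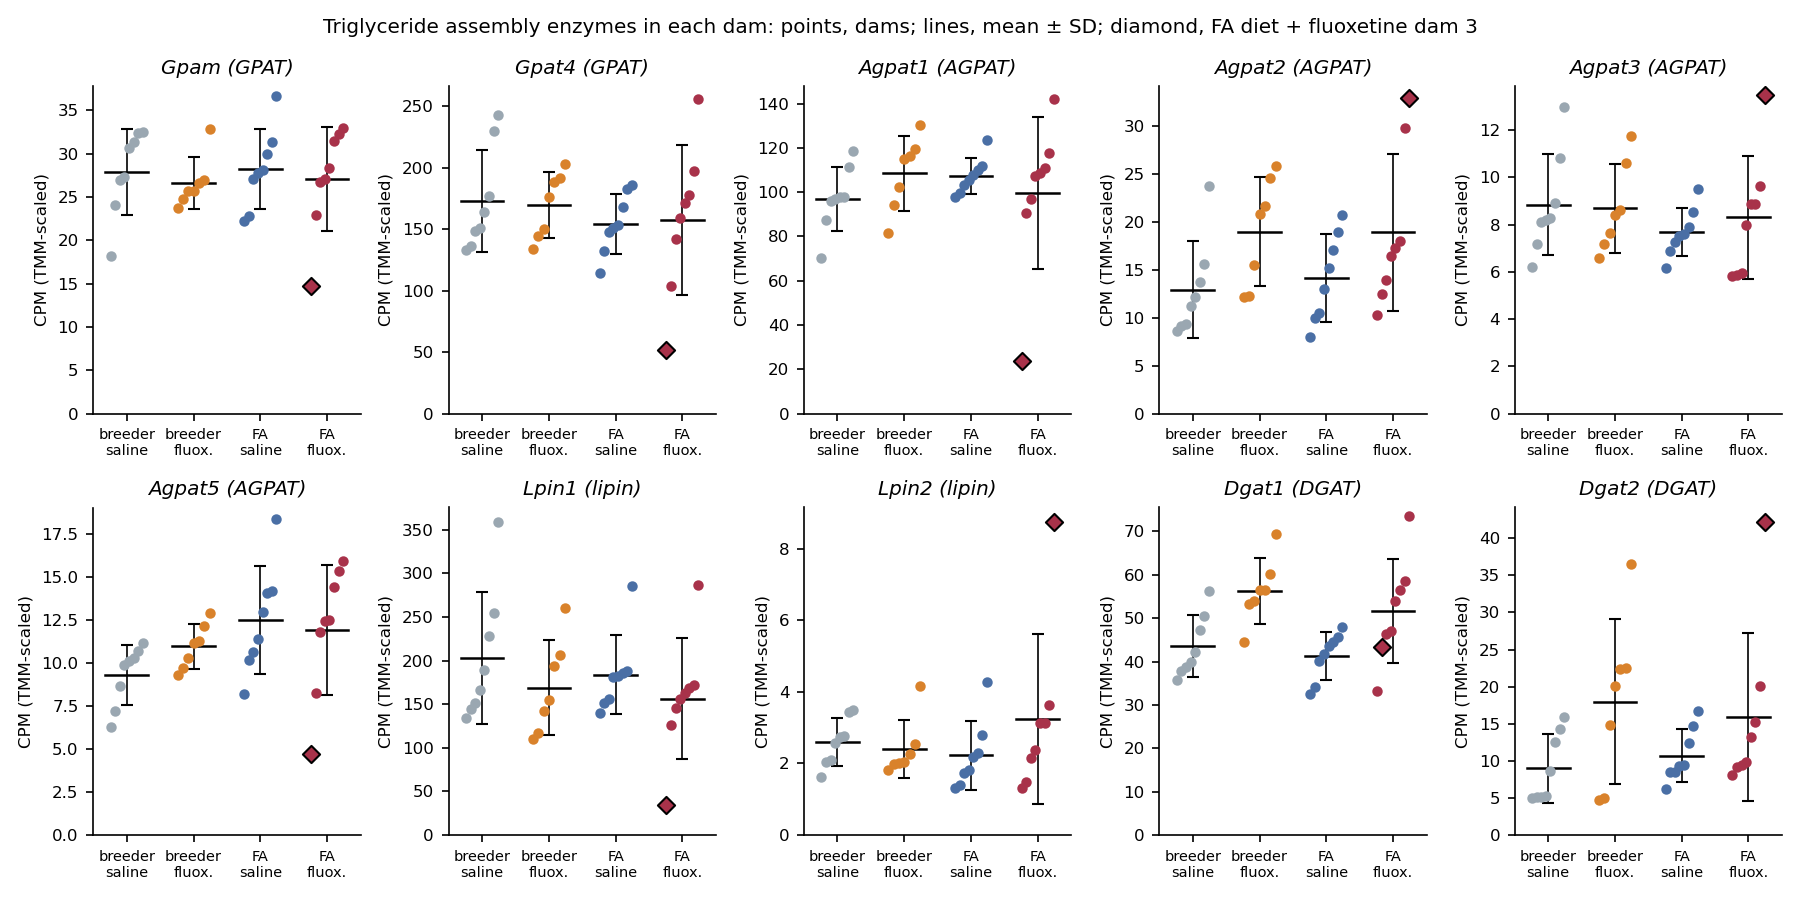
CPM of the 10 genes by dam in the 4 groups (points, dams; horizontal line and bar, mean ± SD; n = 8, 7, 8 and 8), each panel with its own axis from 0. *Dgat1*, *Dgat2* and *Agpat2* sit higher in the fluoxetine-treated groups with overlapping ranges, and the diamond, FA diet + fluoxetine dam 3, is the lowest *Agpat1* value at 23.7 CPM and the highest *Dgat2* value at 42.2 CPM.

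At the first step the drug groups had similar medians. *Gpam*, regulated by insulin in liver and fat, ranged from 18.2 to 36.7 CPM (median 27.9) in the 16 saline-treated dams and from 14.7 to 33.0 CPM (median 26.8) in the 15 fluoxetine-treated dams. *Gpat4* ranged from 114.5 to 242.7 CPM (median 151.9) with saline and from 51.8 to 256.1 CPM (median 171.2) with fluoxetine. The groups overlapped almost entirely for both genes. The log2 fold change of *Gpam* was −0.06 (95% confidence interval −0.27 to 0.14, adjusted p = 0.866) and that of *Gpat4* was −0.0003 (−0.29 to 0.29, adjusted p = 0.999).

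At the second step *Agpat2* was the 1 AGPAT with an unadjusted p of 0.05 or below. It measured 8.59 to 23.7 CPM (median 11.6) with breeder diet and saline and 12.1 to 25.8 CPM (median 20.8) with breeder diet and fluoxetine. On the FA diet it measured 8.01 to 20.7 CPM (median 14.0) with saline and 10.2 to 32.9 CPM (median 16.8) with fluoxetine. The ranges overlapped on both diets, with 12 of 15 fluoxetine-treated dams above the median of the saline dams on their diet and 4 above every one of them. Its log2 fold change was 0.49 ± 0.17 (SE, 95% confidence interval 0.13 to 0.84, n = 16 and n = 15, p = 0.0082, adjusted p = 0.391). Without FA diet + fluoxetine dam 3 the log2 difference was 0.39, the smallest over the 31 fits that each left out a dam, and without both libraries low in milk transcripts it was 0.36 (adjusted p = 0.501).

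*Agpat1*, by far the more abundant gene of this step, had means of 102.2 ± 12.6 CPM with saline (SD, n = 16) and 103.8 ± 27.0 CPM with fluoxetine (n = 15), and a log2 fold change of 0.03 (95% confidence interval −0.25 to 0.30). *Agpat3* and *Agpat5*, whose enzymes have been placed in the Golgi and endoplasmic reticulum and in mitochondria, had log2 fold changes of 0.05 (−0.19 to 0.29) and 0.09 (−0.18 to 0.35). The smallest adjusted p of these 3 genes was 0.862. On the FA diet *Agpat1* ran from 97.8 to 123.4 CPM with saline and from 23.7 to 142.0 CPM with fluoxetine, where dam 3 set the low end and the next dam stood at 90.5 CPM.

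At the lipin step the abundant and the scarce gene had opposite signs, neither past any threshold. *Lpin1*, the main phosphatidate phosphatase of fat and muscle, ranged from 134.4 to 359.2 CPM (median 181.6) with saline and from 34.5 to 286.1 CPM (median 156.0) with fluoxetine. Only 4 of 15 fluoxetine-treated dams were above the saline median of their diet. The log2 fold change was −0.25 (95% confidence interval −0.62 to 0.12, n = 16 and n = 15, p = 0.180, adjusted p = 0.664). *Lpin2*, prominent in liver, measured 1.32 to 4.29 CPM with saline and 1.31 to 8.76 CPM with fluoxetine, and its log2 fold change was 0.22 (−0.22 to 0.66, adjusted p = 0.773). Its difference rested on 1 library, since without FA diet + fluoxetine dam 3 it was 0.00072.

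The last step held *Dgat1*, the member with the smallest p for fluoxetine in the quasi-likelihood test. *Dgat1*, an enzyme of the endoplasmic reticulum with broad acyl acceptor use, measured 35.8 to 56.2 CPM (median 41.1) with breeder diet and saline and 44.4 to 69.5 CPM (median 56.5) with breeder diet and fluoxetine. On the FA diet it measured 32.5 to 47.9 CPM (median 42.6) with saline and 33.2 to 73.5 CPM (median 50.6) with fluoxetine. The ranges overlapped, but 14 of 15 fluoxetine-treated dams were above the saline median of their diet, 8 were above every saline dam of their diet and none was below. Means were 42.4 ± 6.22 CPM with saline (SD, n = 16) and 53.8 ± 10.1 CPM with fluoxetine (n = 15).

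The log2 fold change of *Dgat1* was 0.35 ± 0.09 (SE, 95% confidence interval 0.15 to 0.54, n = 16 and n = 15, p = 0.0008, adjusted p = 0.277). DESeq2 gave it an adjusted p of 0.098 and limma voom with quality weights 0.082, both past the 10% FDR. The value hardly moved with the libraries used, from 0.30 to 0.38 when each dam was left out in turn (no adjusted p of 0.1 or below) and 0.33 without both libraries low in milk transcripts.

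*Dgat2* had larger differences and a wider spread. It measured 5.03 to 16.0 CPM (median 6.93) with breeder diet and saline and 4.68 to 36.5 CPM (median 20.0) with breeder diet and fluoxetine. On the FA diet it measured 6.15 to 16.7 CPM (median 9.36) with saline and 8.15 to 42.2 CPM (median 11.5) with fluoxetine. On the breeder diet fluoxetine-treated dams therefore held the lowest as well as the highest value, while on the FA diet the lowest was a saline dam. Over both diets, 11 of 15 fluoxetine-treated dams were above the saline median of their diet and 6 were above every saline dam of it. The 2 that were below every saline dam were on the breeder diet. The log2 fold change was 0.79 ± 0.28 (SE, 95% confidence interval 0.22 to 1.35, n = 16 and n = 15, p = 0.0078, adjusted p = 0.390).

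The 2 highest *Dgat2* values belonged to the 2 libraries low in milk transcripts, dam 3 at 42.2 CPM and dam 13 at 36.5 CPM. Without both, the log2 fold change of *Dgat2* was 0.45 (adjusted p = 0.562), which is over 1.5 times smaller. Without dam 3 alone it was 0.58. What part those libraries' tissue makeup had in the difference was not tested. In whole gland, more cells of a type and more RNA per cell cannot be told apart.

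**Figure D2:**
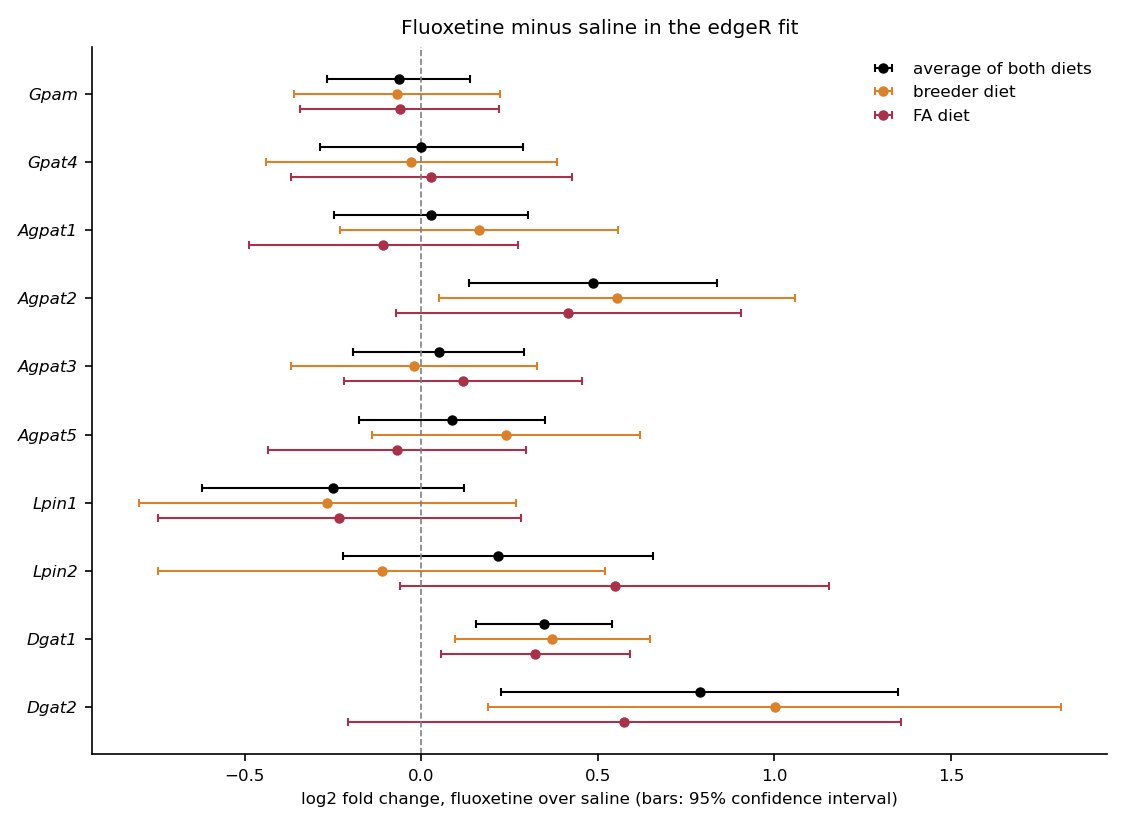
Log2 fold change of fluoxetine over saline for the 10 genes in the edgeR fit, averaged over diets (black) and on each diet (orange, breeder; red, FA), with 95% confidence intervals. The averaged intervals of *Dgat1*, *Dgat2* and *Agpat2* lie above 0, and those of the other 7 genes include 0.

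Fat cell RNA moved with the levels of *Dgat2* and *Agpat2* but not with *Dgat1*. After the group means were subtracted, the correlation over 31 dams with the mean log2 level of the 9 adipocyte markers was r = 0.874 for *Dgat2* (rho = 0.892) and r = 0.809 for *Agpat2* (rho = 0.788). Each had an adjusted permutation p of 0.0001 over 20 member and marker list pairs, the smallest that 100000 resamples can give. Leaving out the 2 dams farthest from the median gave r = 0.867 and r = 0.739. Without dam 3 the values were 0.845 and 0.774, and without both libraries low in milk transcripts 0.851 and 0.766. *Dgat1* had r = −0.116 (rho = −0.201, adjusted p = 0.615).

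The adipocyte markers themselves differed little between drug groups. Of the 9, 5 were higher and 4 lower under fluoxetine, 1 (*Fabp4*, a fatty acid carrier, log2 fold change 0.42, adjusted p = 0.417) had an unadjusted p of 0.05 or below and none passed the FDR, with a median log2 fold change of 0.08. Their summed level ran from 313.6 to 782.5 CPM (median 432.7) with saline and from 186.7 to 1040 CPM (median 435.7) with fluoxetine. With the mean log2 marker level as a covariate in the edgeR fit, 2 of 10 members passed the 10% FDR, against 0.132% of all genes (19 of 14362). *Dgat2* rose by a log2 fold change of 0.80 (adjusted p = 0.0074) and *Agpat2* by 0.56 (adjusted p = 0.022), while *Dgat1* was at 0.34 (adjusted p = 0.194). Without the covariate *Dgat2* was at 0.79 and *Agpat2* at 0.49. These are the 2 members that followed the covariate most closely within groups, so the share over all genes is not a like comparison. The markers were measured in the same libraries, after treatment.

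Those 2 calls did not hang on a single dam. When each dam was left out of the covariate fit in turn, *Dgat2* lay between 0.71 and 0.86 and *Agpat2* between 0.53 and 0.61, and both passed the FDR in 31 of 31 fits (highest adjusted p = 0.0174 and 0.0564). Without both libraries low in milk transcripts, an alternative added after the data were seen, *Dgat2* was at 0.70 (adjusted p = 0.0464) and *Agpat2* at 0.56 (adjusted p = 0.0744), against 0.0625% of all genes passing. With the secretory epithelial marker level as the covariate, neither passed, with *Dgat2* at 0.49 (adjusted p = 0.591), *Agpat2* at 0.36 (0.541) and *Dgat1* at 0.36 (0.329). Under fluoxetine all 8 secretory markers had fitted levels below those of saline, with a median log2 fold change of −0.15, and none had an unadjusted p of 0.05 or below. Both libraries low in milk transcripts were from fluoxetine-treated dams, and marker fold changes without them are not given here. The median summed level of the 8 markers was 527551 CPM with saline and 512499 CPM with fluoxetine.

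**Figure D3:**
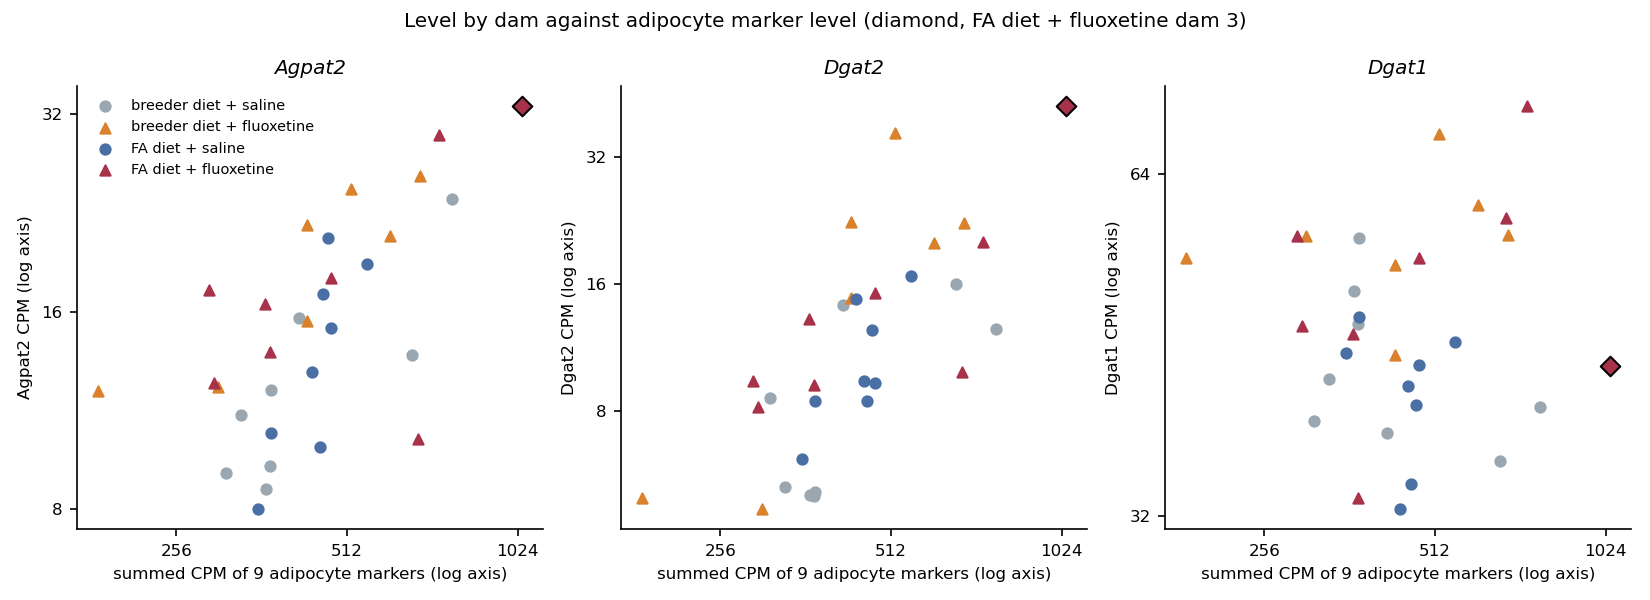
CPM of *Agpat2*, *Dgat2* and *Dgat1* in each dam (vertical axis, log scale) against the summed CPM of 9 adipocyte markers (horizontal axis, log scale), with circles for saline, triangles for fluoxetine and a diamond for FA diet + fluoxetine dam 3. *Agpat2* and *Dgat2* follow the markers (r = 0.809 and 0.874 with the mean log2 marker level after subtracting group means) and *Dgat1* does not (r = −0.116).

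Between diets the set differed little. None of the 10 genes passed the FDR and 1 had an unadjusted p of 0.05 or below, against 0.0% and 5.08% of all genes (729 genes at that p). The likelihood ratio test, DESeq2 and limma voom also called no gene for FA or for the interaction, with 703 and 558 genes at an unadjusted p of 0.05 or below in the first, 796 and 639 in the second and 1229 and 878 in the third. The 1 member was *Agpat5*, at 6.25 to 12.9 CPM (median 10.3) in the 15 dams of the breeder diet and 4.70 to 18.4 CPM (median 12.5) in the 16 dams of the FA diet. The ranges overlapped, and the log2 fold change was 0.28 ± 0.13 (SE, n = 15 and n = 16, p = 0.041, adjusted p = 0.933). The others ran from −0.13 for *Gpat4* and *Agpat3* to 0.12 for *Lpin2*. *Dgat1* was at −0.10 (95% confidence interval −0.30 to 0.09) and *Dgat2* at 0.04 (−0.52 to 0.60).

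The fluoxetine difference was not shown to depend on diet for any member. In the interaction test 0 of 10 genes passed the FDR or had an unadjusted p of 0.05 or below, against 0.0% and 3.84% of all genes (552 genes at that p). For *Dgat1* the log2 fold change was 0.37 on the breeder diet and 0.32 on the FA diet, a difference of −0.05 (95% confidence interval −0.43 to 0.34). For *Agpat2* it was 0.55 and 0.42 (difference −0.14, −0.84 to 0.56). For *Dgat2* it was 1.0 and 0.57 (difference −0.43, −1.55 to 0.70).

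On the breeder diet alone, 3 of 10 members (the same 3) had an unadjusted p of 0.05 or below, against 4.39% of all genes (630 genes), and on the FA diet 1 (*Dgat1*), against 9.98% (1434 genes). No gene of all 14362 passed the FDR on either diet (0.0%), although the likelihood ratio test called 5 and 4 and DESeq2 4 and 16. Single dams moved some of these values. On the breeder diet *Dgat2* was at 0.73 and 1 member was at that p without fluoxetine dam 13, and *Agpat2* was lowest, at 0.46, without fluoxetine dam 2. On the FA diet *Dgat2* was at 0.16 and *Agpat2* at 0.24 without fluoxetine dam 3, while *Dgat1* was lowest, at 0.23, without fluoxetine dam 6, which left 0 members at that p. *Lpin2* had the most positive interaction value, 0.66 (adjusted p = 0.977), and 0.23 without dam 3.

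Ratios of 2 enzymes of the same step within a dam do not depend on scaling between libraries. With saline the median ratio of *Dgat2* to *Dgat1* counts was 0.173 on the breeder diet and 0.237 on the FA diet, and with fluoxetine it was 0.333 and 0.275. The mean log2 ratio was −2.21 ± 0.77 with saline (SD, n = 16) and −1.92 ± 0.93 with fluoxetine (n = 15), and the difference averaged over diets was 0.29 (permutation p = 0.356, adjusted p = 0.474 over 4 ratios). That difference was smaller than the SD between dams of either drug group, and without dam 3 it was 0.16.

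The ratio of *Agpat2* to *Agpat1* had the smallest p of the 4, with medians of 0.109 and 0.128 with saline and 0.181 and 0.169 with fluoxetine on the breeder and FA diets and a log2 difference of 0.52 (permutation p = 0.069, adjusted p = 0.276). In dam 3 that ratio was 1.39, the only dam with more *Agpat2* than *Agpat1* counts, and without that dam the difference was 0.31. For *Lpin2* to *Lpin1* the difference was 0.45 (adjusted p = 0.378, and 0.19 without dam 3) and for *Gpat4* to *Gpam* 0.02 (adjusted p = 0.861). For the FA diet, 0 of 4 ratios differed, and the smallest adjusted p was 0.527, for *Gpat4* to *Gpam* (log2 difference −0.19).

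The 10 enzymes did not vary as a block between dams. Of 45 pairs, 2 had an adjusted permutation p of 0.05 or below after the group means were subtracted. *Agpat2* and *Dgat2*, whose upstream sequences are given above, had r = 0.778 and rho = 0.804 (adjusted p = 0.00045 for each, the smallest that 100000 resamples can give). The relation held at r = 0.744 without the 2 dams farthest from the median of *Agpat2* and 0.735 without both libraries low in milk transcripts. *Gpam* and *Lpin2* had r = −0.634 (adjusted p = 0.034) but rho = −0.394 (adjusted p = 0.365), and r = −0.409 without the 2 farthest dams, so that relation rested on those dams. *Dgat1* and *Dgat2* had r = −0.115 (adjusted p = 0.640) and *Agpat2* and *Dgat1* r = −0.020 (adjusted p = 0.926).

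**Figure D4:**
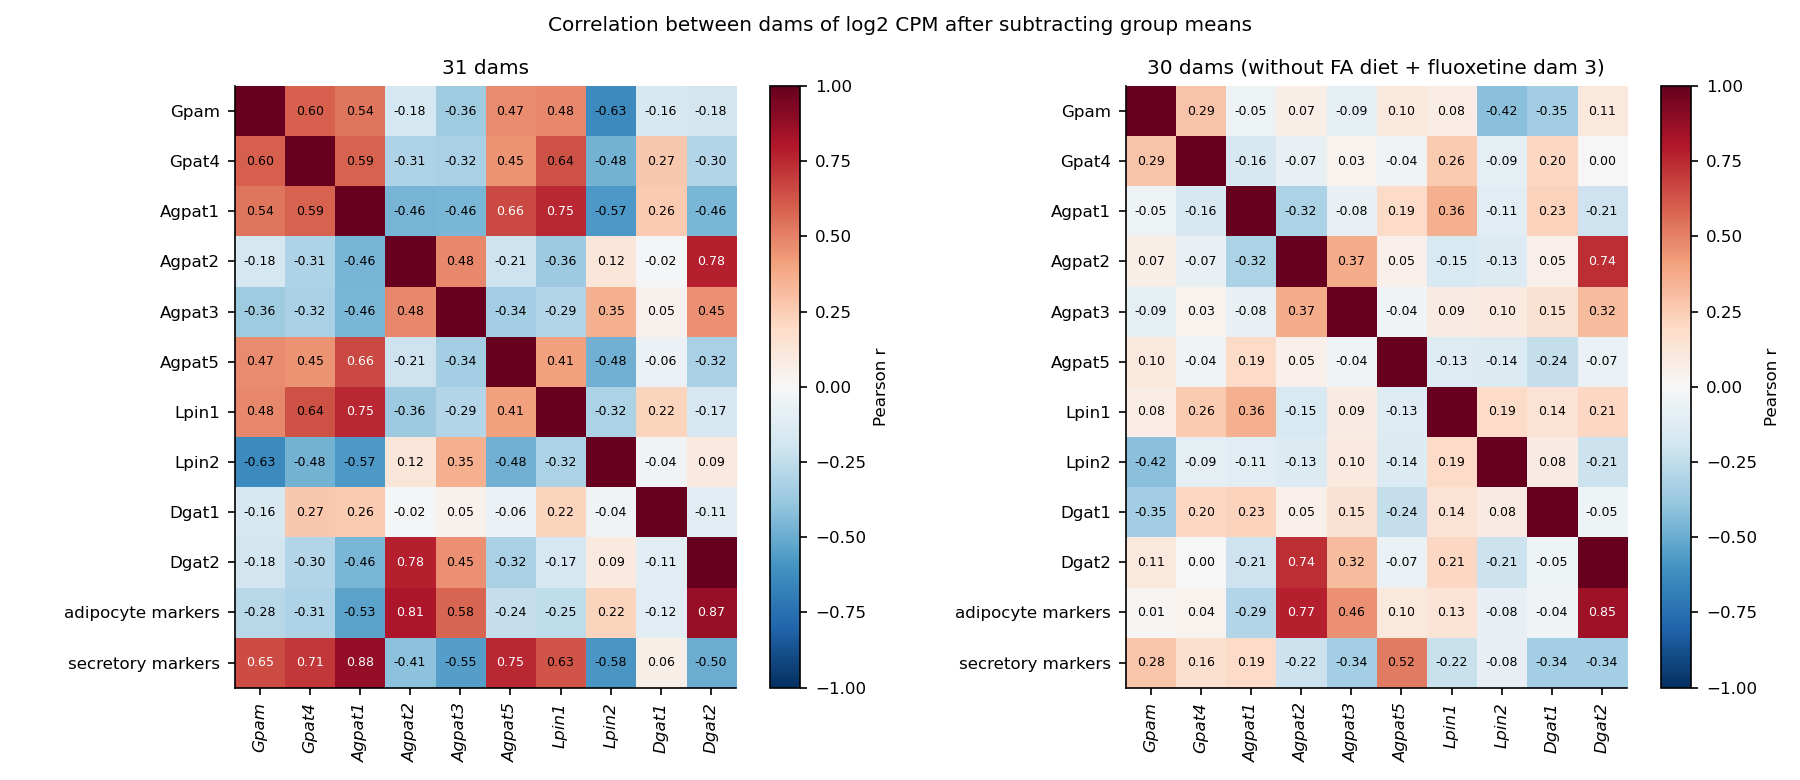
Pearson r between dams of the 10 genes with each other and with the mean log2 level of adipocyte and secretory epithelial markers, after subtracting group means, over 31 dams (left) and 30 dams without FA diet + fluoxetine dam 3 (right), on a colour scale from −1 to 1. The *Agpat2* and *Dgat2* pair is at 0.78 on the left and stays red on the right, as do both genes with the adipocyte markers, while most other strong values on the left lose their colour on the right.

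With both marker lists, 11 of 20 pairs had an adjusted p of 0.05 or below over all 31 dams. *Agpat1* followed the secretory epithelial markers (r = 0.877, rho = 0.557), as did *Agpat5* (r = 0.752, rho = 0.591), *Gpat4* (r = 0.710, rho = 0.379, adjusted p of rho = 0.093) and *Gpam* (r = 0.654, rho = 0.459). *Agpat3* went the other way (r = −0.550) and with the adipocyte markers (r = 0.581), while *Agpat1* was negative with the latter (r = −0.534). Without dam 3 only 3 pairs remained past that threshold, *Agpat5* with the secretory markers (r = 0.518, adjusted p = 0.013) and *Agpat2* and *Dgat2* with the adipocyte markers. Without the 2 farthest dams, r of *Agpat1* with the secretory markers was 0.385, of *Gpat4* 0.267 and of *Gpam* 0.381, so much of each r came from those dams.

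FA diet + fluoxetine dam 3 held the extreme value of 9 of the 10 genes. In TMM-scaled CPM it had the lowest level of all 31 dams for *Gpam* (14.7), *Gpat4* (51.8), *Agpat1* (23.7), *Agpat5* (4.70) and *Lpin1* (34.5). It had the highest for *Agpat2* (32.9), *Agpat3* (13.5), *Lpin2* (8.76) and *Dgat2* (42.2). All these values were divided by this dam's TMM factor of 3.04, the largest of the 31. The low places depend on that scaling, and places without it are not given here. *Dgat1*, at 43.4 CPM, was inside the range of its group. In this dam, with the fewest milk transcripts, the leading genes of the first 3 steps (*Gpat4*, *Agpat1* and *Lpin1*) were at their lowest, while *Agpat2*, *Agpat3* and *Lpin2* of the same steps were at their highest.

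Genes whose levels followed the DGATs most closely differed between them. The 5 genes most like *Dgat2* in group-centred log2 CPM over 31 libraries were *Cidec* (r = 0.867), *Adipoq* (0.855), *Plin1* (0.855), *Prkar2b* (0.829) and *Cdo1* (0.828), of which *Cidec*, *Adipoq* and *Plin1* are adipocyte markers of the list used above. The 5 most like *Dgat1* were *Ranbp3* (0.789), *Zfp956* (0.766), *Prkag2os1* (0.747), *Pyroxd2* (0.746) and *Snhg8* (0.743), none of them in that list. These are the highest of 14361 values each and carry no test.

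Of 66 other genes of the pathway, 61 passed the filter, and 0 passed the FDR under fluoxetine, under FA or for the interaction. Without adjustment, 6 had p of 0.05 or below for fluoxetine, all higher, 0 for FA and 2 for the interaction, the regulators *Thrsp* (−0.74) and *Nr1h3* (1.32). Over all genes tested the shares at that p were 9.92%, 5.08% and 3.84%, so the counts of 6 and 2 among 61 were near the background and are no result about the pathway. The 6 were *Pcyt2* (phosphatidylethanolamine synthesis, log2 fold change 0.40), *Mgll* (monoglyceride lipase, 0.54), *Lipe* (hormone-sensitive lipase, 0.37), *Slc27a1* (fatty acid transport, 0.38) and the lipogenic regulators *Mlxipl* (0.53) and *Nr1h3* (0.64), with adjusted p between 0.425 and 0.463. The list of 4 genes for glycerol 3-phosphate supply had none, with a median log2 fold change of −0.0007 for fluoxetine, and the 10 measured lipid droplet genes had none, with *Cidea* at 1683 ± 312 CPM with saline and 1528 ± 430 CPM with fluoxetine. *Pparg*, *Srebf1* and the remaining regulators did not pass either threshold for fluoxetine.

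Paralogs outside the set were scarce. *Gpat2* (41 counts over all 31 libraries), *Mogat1* (211), *Mogat2* (37) and *Dgat2l6* (27) did not pass the filter, nor did the droplet gene *Cideb* (77), and they have no test. *Gpat3*, which passed it, measured 0.839 ± 0.413 CPM with saline (SD, n = 16) and 1.15 ± 0.739 CPM with fluoxetine (n = 15), and its log2 fold change was 0.46 (adjusted p = 0.666). *Agpat4*, *Lclat1* and *Lpin3* also passed it without reaching an unadjusted p of 0.05.

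Reads from overlapping genes limit some of these values. By the annotation, 2486 bp (54.6%) of the merged exons of *Dgat1* are shared with *Hsf1*, the heat shock transcription factor, on the opposite strand, and 1088 bp (24.2%) of those of *Agpat2* with *Egfl7*, an endothelial gene on the opposite strand. Whether reads were counted by strand is not given in the sources used here, so reads in the shared bases may not be told apart or may be left uncounted. The levels per kb of *Dgat1* and *Agpat2* by merged exons were divided by lengths that include those bases, and carry this limit. Their counts carry it too, and with them their levels by canonical transcript, ratios and fold changes. *Hsf1* had 10.96 ± 2.57 CPM with saline and 12.2 ± 3.38 CPM with fluoxetine (log2 fold change 0.16, adjusted p = 0.720). *Egfl7* had 9.78 ± 5.42 and 13.8 ± 6.57 CPM (n = 16 and n = 15, log2 fold change 0.48, p = 0.052, adjusted p = 0.503), close to the *Agpat2* difference, and its part in that difference was not tested. *Ntsr2* shares 531 bp with *Lpin1* (log2 fold change 1.14, adjusted p = 0.463) and *Egfl8* 101 bp with *Agpat1* (0.37, adjusted p = 0.693).

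**Figure D5:**
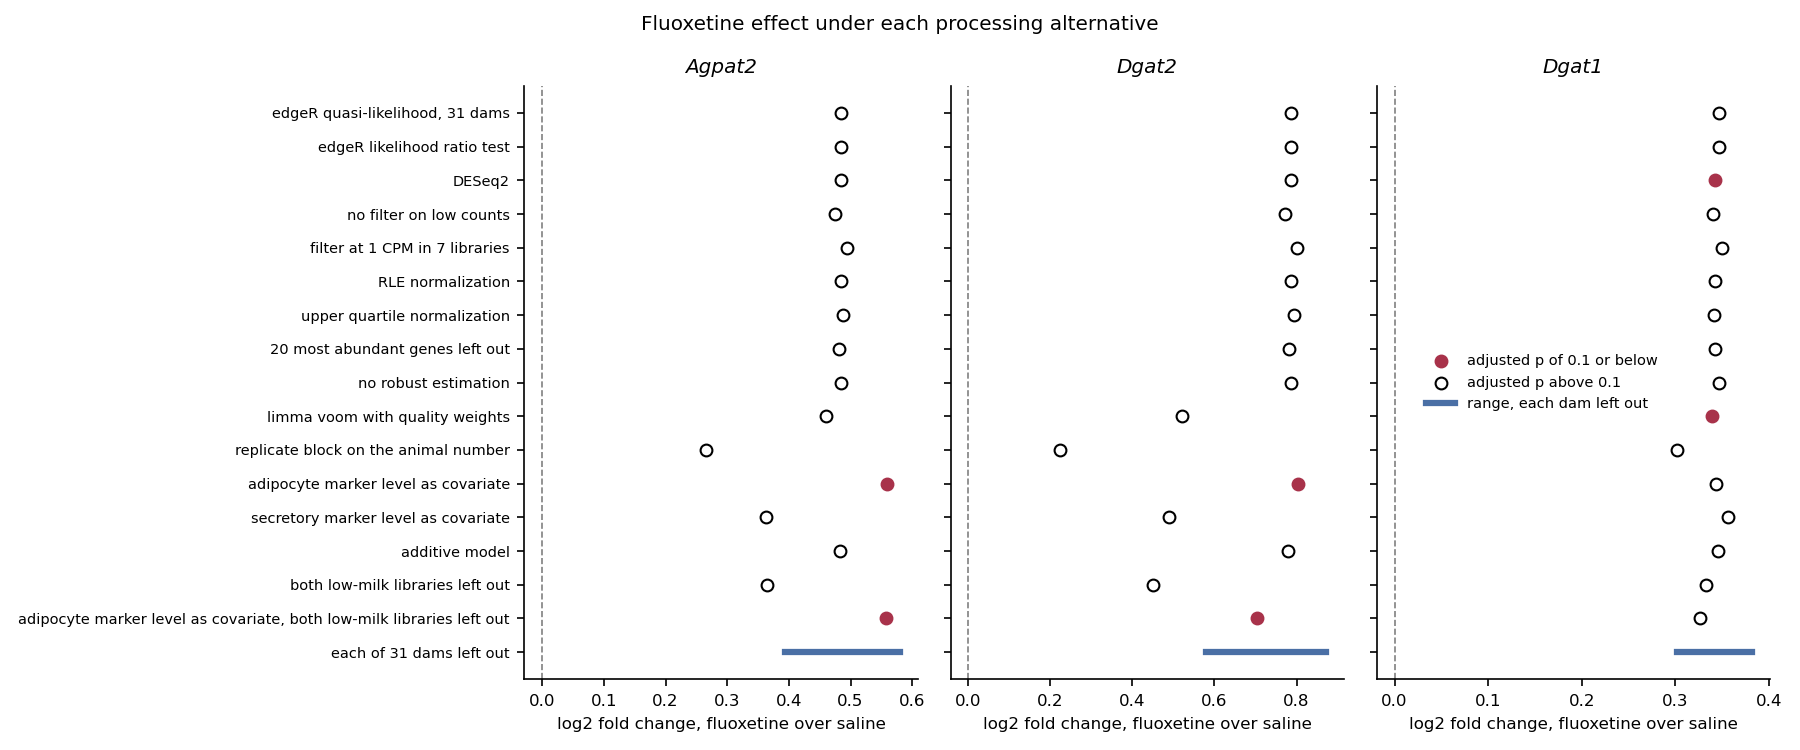
Log2 fold change of fluoxetine over saline (horizontal axis) for *Agpat2*, *Dgat2* and *Dgat1* under each processing alternative (rows), filled red where the adjusted p was 0.1 or below, with the range over 31 fits that each leave out a dam as a blue bar. All values lie above 0. *Dgat1* lies between 0.30 and 0.38 throughout, and *Dgat2* between 0.22, with the animal number as a block, and 0.87, in the fits that leave out a dam.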

How the data were processed

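The authors deposited 1 table of read counts per gene for each of 31 poly(A) RNA-seq libraries of mouse mammary gland. Per the labels, reads were checked with FastQC 0.11.7, trimmed with Trim Galore 0.4.4, aligned to GRCm39 with HISAT2 and counted with HTSeq. The strand setting and the annotation release are not given in the sources used here. Gene symbols, exon lengths and start sites came from GENCODE vM39, which held 54712 of 55379 gene identifiers and all 10 members. Members and lists were chosen with earlier results of these data known.

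Counts were filtered by group (filterByExpr, 14362 genes kept and 41017 removed), scaled by TMM and fitted in edgeR 4.0.16 (R 4.3.3) with 4 diet and drug groups, robust quasi-likelihood dispersions and Benjamini-Hochberg adjustment over all genes (FDR 10%). The contrasts were the fluoxetine effect, the FA effect, their interaction and fluoxetine on each diet. The common dispersion was 0.169. CPM were TMM-scaled, and log2 CPM used a prior count of 2. DESeq2 1.42.0 and limma 3.58.1 (voom with quality weights) were alternatives, as were other filters and normalizations, the animal number as a replicate block, marker covariates and leaving out each dam. Leaving out 2 libraries low in milk transcripts, alone and with the adipocyte covariate, leaving out each dam under that covariate, and canonical transcript lengths were added after the data were seen. Ratios (counts + 0.5) and correlations were tested with two-sided permutations (100000 resamples, within diet or group; threshold of 0.05 after adjustment). The fits were tested on simulated data first.

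The named genes were all 10 members, the pathway genes of smallest p for fluoxetine (2 per list), those below the filter, the 5 genes most like *Dgat1* and *Dgat2*, overlapping genes and cell type markers. No 2 libraries of a group were alike within counting noise (lowest chi-square per degree of freedom 14.9 over 105 pairs). Depth was 15412542 to 36000439 counts, and counts of the scarcest member, *Lpin2*, were 22 to 501 per library.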

Additional observations from a re-analysis of the deposited data

Results flagged for a closer look

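In 40 groups of a member (10 genes in 4 groups), 7 values had a gap to the nearest other dam, relative to the range of the group, above Dixon's critical value. That critical value is set for about 1 in 20 groups of independent, normally distributed values. The CPM were not transformed and the 10 genes share the same dams, so the 7 cannot be set against that rate. Of the 7, 3 were FA diet + fluoxetine dam 3, the library with the fewest milk transcripts. Its *Agpat1* was low at 23.7 CPM (the other 7 dams 90.5 to 142.0), its *Lpin2* was high at 8.76 CPM (1.31 to 3.64) and its *Dgat2* was high at 42.2 CPM (8.15 to 20.1).

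The other 4 were single high values in other dams. *Gpam* was 32.9 CPM in breeder diet + fluoxetine dam 6 (the others 23.7 to 27.0), *Lpin2* was 4.15 CPM in breeder diet + fluoxetine dam 8 (1.81 to 2.54), *Agpat2* was 23.7 CPM in breeder diet + saline dam 3 (8.59 to 15.6) and *Lpin1* was 285.9 CPM in FA diet + saline dam 3 (139.8 to 188.2).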

How the results depend on the processing

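The animal number was tried as a replicate block. Same-numbered dams had a median correlation of deviations of 0.079 over 28 pairs (−0.22 to 0.43, 12 over 0.1). Differently numbered dams had −0.007 over 332 pairs (−0.41 to 0.43, 74 over 0.1). Whether the numbers pair the dams was not tested. With the block 0 of 10 members passed for fluoxetine, FA or the interaction, *Dgat1* was at 0.30, *Agpat2* at 0.26 and *Dgat2* at 0.22, and *Agpat1* (−0.18), *Agpat5* (−0.047) and the interaction of *Dgat2* (0.16) changed sign.

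For fluoxetine, members past the FDR numbered 1 with DESeq2, 1 with limma voom, 2 with the adipocyte covariate and 2 with that covariate and both libraries low in milk transcripts left out, and 0 in all 31 fits without 1 dam. *Agpat2*, *Dgat1* and *Dgat2* stayed above 0 in the fluoxetine fits tried. Signs near 0 changed with the secretory covariate (*Gpam* 0.010, *Gpat4* 0.11, *Agpat3* −0.052, *Lpin2* −0.0056), the adipocyte covariate (*Agpat1* −0.018), both libraries left out (*Gpat4* 0.077, *Agpat3* −0.049), these combined with the adipocyte covariate (*Gpat4* 0.083), limma voom (*Gpat4* 0.056), a filter at 1 CPM (*Gpat4* 0.000637) and the additive model (*Gpat4* 0.000659). Without 1 dam, ranges that crossed 0 were those of *Gpat4* (−0.068 to 0.055), *Agpat1* (−0.014 to 0.091) and *Agpat3* (−0.031 to 0.10), and for ratios *Gpat4* to *Gpam* under fluoxetine (−0.037 to 0.067) and, for FA, *Agpat2* to *Agpat1* (−0.12 to 0.19) and *Lpin2* to *Lpin1* (−0.11 to 0.24). Members at an unadjusted p of 0.05 or below numbered 0 to 1 for FA, 0 to 1 for the interaction, 1 to 3 on the breeder diet and 0 to 2 on the FA diet.

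Pairs of members past the threshold numbered 8 without subtraction of group means, 1 without both libraries and 1 without FA diet + fluoxetine dam 3. Pairs with markers numbered 7 without the 20 most abundant genes, 4 without both libraries and 3 without dam 3. Without subtraction, r changed sign for *Dgat1* with *Dgat2* (0.125), *Agpat2* with *Dgat1* (0.236) and *Dgat1* with the secretory markers (−0.066, and −0.045 without the 20 genes). Without both libraries it did so with the adipocyte markers for *Gpam* (0.0087), *Gpat4* (0.061), *Agpat5* (0.139), *Lpin1* (0.073) and *Lpin2* (−0.051), and with the secretory markers for *Lpin1* (−0.0077) and *Dgat1* (−0.235). Without dam 3 these were 0.014, 0.038, 0.103, 0.135 and −0.079 and, with the secretory markers, −0.223 and −0.342, and *Agpat2* with *Dgat1* was 0.049. The cause of these changes was not tested.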

Other observations

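Cell type markers other than those of adipocytes and secretory cells gave few differences under fluoxetine, and none passed the FDR in edgeR. Of 6 basal or myoepithelial markers, 2 reached p of 0.05 or below before adjustment, namely the contractile genes *Acta2* (log2 fold change −0.38, adjusted p = 0.360) and *Myh11* (−0.32, adjusted p = 0.430), both lower, against 9.92% of all genes at that p. Of the 6, 2 were higher and 4 lower. None of the tested leukocyte (4 of 5), neutrophil (1 of 3), fibroblast (4 of 4), skeletal muscle (4 of 4) and endothelial (2 of 2) markers reached that level. The other leukocyte and neutrophil markers did not pass the filter and had no test, and the 1 tested neutrophil marker, *S100a8*, had a log2 fold change of 1.24 (adjusted p = 0.529).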
